A study of Schizosaccharomyces pombe with 6 samples.

Results

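The SUMO ligases Pli1 and Nse2 of fission yeast (Schizosaccharomyces pombe) were compared by the summits of their called ChIP-seq regions, a summit being the position of highest signal inside a region. A summit was counted as shared when a summit of the other ligase lay within 500 bp of it, and otherwise as Pli1 only or Nse2 only. Both ends of chromosome III, where the ribosomal DNA lies, were left out over 30 kb each. This kept 334 regions of the 3896 in the series' 3 lists of called regions. Of them 284 came from the Pli1 list of 299 and 50 from the Nse2 list of 62. The 15 Pli1 and 12 Nse2 regions at the ends of chromosome III are not described further. The 3 strains carried Pli1-12Pk, Nse2-12Pk or no tag, 12Pk being a run of Pk epitopes fused to the ligase. Each was grown exponentially in the rich medium YES, mixed before crosslinking with budding yeast Ku70-cMyc cells as a calibrator, and precipitated with an anti-Pk antibody. No drug or mutation besides the tag is named in the labels, and they do not say where in the protein the tag was placed. Each strain had 1 ChIP library and 1 input, 6 samples in all, so there are no replicates and no test between the ligases. The range after a share is its exact binomial 95% interval (Clopper-Pearson) and reflects counting error alone. Read depth per list was not given in the sources used here, so the reads behind a summit are unknown. Each region has a score from the authors on a scale that is not stated, so scores are used as ranks within a list only, with rank 1 the highest.

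SUMO is a small protein that is joined to other proteins and changes what they bind or how long they last. Pli1 is a ligase of the PIAS family and carries out most SUMO attachment in fission yeast, while Nse2 is the ligase subunit of Smc5/6, a ring-shaped complex that holds DNA and acts in repair and at stalled replication forks. Chromatin with repeated sequence or heavy transcription, such as centromeres, tRNA genes and highly expressed genes, is often studied for both.

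Sequence around 8 summits is shown from the RefSeq genome, build ASM294v3, because these loci show how sharing looked at the scale of bases. The first pair are 2 copies of a centromere 2 repeat at tRNA-Ile genes. Both ligases had their summit at SPBTRNAILE.07 (chrII:1629951-1630101, plus strand), and Pli1 alone at SPBTRNAILE.06 (chrII:1618317-1618467, minus strand). These copies lay in the same Nse2 region, and a region has a single summit, so Nse2 could not have a summit at both. The second pair are 2 inverted copies at tRNA-Arg genes of centromere 3, with the Nse2 summit at SPCTRNAARG.12 (chrIII:1092536-1092686, plus strand) and the Pli1 summit at SPCTRNAARG.13 (chrIII:1106347-1106497, minus strand). Both tRNA-Arg copies lay in the same Nse2 region and in the same Pli1 region, so neither ligase could have a summit at both. The shared sites snoU14 (chrII:1308568-1308718), adh1 (chrIII:1592090-1592240) and rpp103 (chrIII:2407884-2408034) and the Nse2-only site rpp202 (chrII:2128146-2128296) are written on the plus strand. Capitals mark the stretch between the summits of both ligases at the shared sites, and 11 bases centred on the summit at the other sites.
SPBTRNAILE.07: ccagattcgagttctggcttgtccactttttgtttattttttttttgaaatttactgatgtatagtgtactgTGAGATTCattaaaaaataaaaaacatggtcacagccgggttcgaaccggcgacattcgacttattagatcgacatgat
SPBTRNAILE.06: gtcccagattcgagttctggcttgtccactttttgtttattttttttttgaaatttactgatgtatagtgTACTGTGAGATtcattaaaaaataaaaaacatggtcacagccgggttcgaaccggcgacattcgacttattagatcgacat
SPCTRNAARG.12: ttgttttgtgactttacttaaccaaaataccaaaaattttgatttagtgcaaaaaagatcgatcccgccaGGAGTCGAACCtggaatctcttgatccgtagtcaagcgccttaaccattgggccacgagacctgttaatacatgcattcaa
SPCTRNAARG.13: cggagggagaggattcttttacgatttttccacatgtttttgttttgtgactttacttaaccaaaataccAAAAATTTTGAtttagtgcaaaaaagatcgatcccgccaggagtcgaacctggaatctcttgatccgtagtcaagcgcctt
snoU14: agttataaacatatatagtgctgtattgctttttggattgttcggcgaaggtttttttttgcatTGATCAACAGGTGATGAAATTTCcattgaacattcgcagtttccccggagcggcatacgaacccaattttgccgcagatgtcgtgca
adh1: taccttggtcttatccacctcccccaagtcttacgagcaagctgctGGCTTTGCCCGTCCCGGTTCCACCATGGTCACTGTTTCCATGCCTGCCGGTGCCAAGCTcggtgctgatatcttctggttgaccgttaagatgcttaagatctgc
rpp103: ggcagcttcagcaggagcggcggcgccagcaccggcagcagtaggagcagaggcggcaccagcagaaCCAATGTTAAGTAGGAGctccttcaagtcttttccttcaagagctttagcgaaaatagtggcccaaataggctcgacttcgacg
rpp202: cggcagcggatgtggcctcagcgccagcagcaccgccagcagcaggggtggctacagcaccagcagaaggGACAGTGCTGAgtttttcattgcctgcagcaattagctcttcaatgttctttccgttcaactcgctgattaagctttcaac
The windows of SPBTRNAILE.07 and SPBTRNAILE.06 share an identical run of 148 bases, and those of SPCTRNAARG.12 and SPCTRNAARG.13 share 112. Those of rpp103 and rpp202, which code for acidic ribosomal proteins P1 and P2, share no run longer than 12. The B-box, a promoter element inside tRNA genes that RNA polymerase III factors bind, was searched on both strands as GGTTCGA, then any 2 bases, then CC. Its centre was 42 bases from the summit at SPBTRNAILE.07 (Nse2 summit) and at SPBTRNAILE.06. It lay at the Nse2 summit of SPCTRNAARG.12 (0 bases) and 39 bases from the Pli1 summit of SPCTRNAARG.13. The other 4 windows hold no match.

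Of the 50 Nse2 summits, 30 were within 500 bp of a Pli1 summit, which is 60% (45.2 to 73.6%). The same 30 pairs were 10.6% (7.24 to 14.7%) of the 284 Pli1 summits. For reference, 2.27% of the positions in the analysed genome lay within 500 bp of a Pli1 summit and 0.398% within 500 bp of an Nse2 summit. The pairs were one to one, so 20 summits were Nse2 only and 254 Pli1 only. A region has a single summit and both lists cover almost the whole genome, so at most 50 Pli1 summits could have been shared. Summits that were not shared nearly all lay in a region of the other list: 20 of 20 Nse2-only summits were inside a Pli1 region, and 253 of 254 Pli1-only summits inside an Nse2 region. "Only" therefore refers to the summit and not to the absence of a call.

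Most pairs were much closer than the 500 bp that defined them. The median distance was 34 bp, with 14 of 30 pairs at 25 bp or less and 26 at 100 bp or less. The pairs just inside the limit were at the elongation factor gene tef103 (453 bp) and the pyruvate decarboxylase gene pdc101 (457 bp). Just outside it were gnd1, a gene of the pentose phosphate pathway (893 bp), and psu1, a cell wall gene (964 bp). In both of these genes each ligase had a summit, but at different positions. In 20 of 30 pairs both summits lay in the same protein-coding gene, with the Nse2 summit downstream of the Pli1 summit in 8 and upstream in 12.

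**Figure D1:**
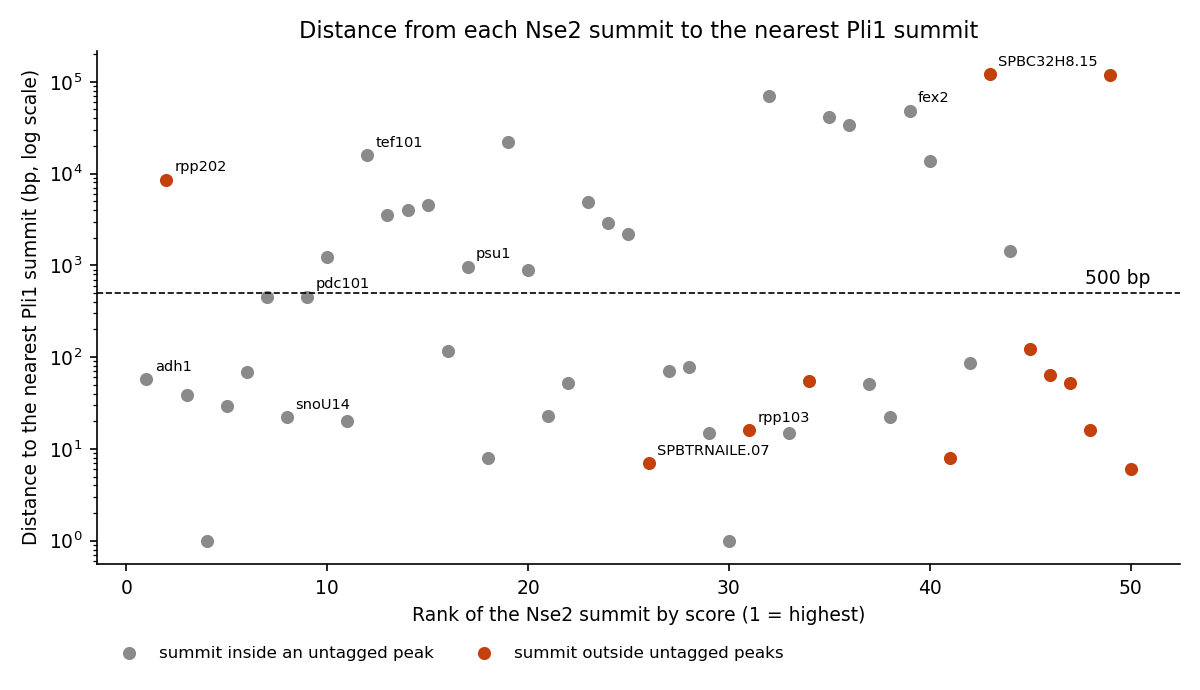
Distance in bp (log scale) from each of the 50 Nse2 summits to the nearest Pli1 summit, against the rank of the Nse2 summit by score; colours show whether the Nse2 summit lay inside an untagged peak, and the dashed line is the 500 bp limit. The 30 shared summits lie between 1 and 457 bp, and the 20 others between 893 and 121317 bp.

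Genes of glycolysis and fermentation held 4 shared summits, and each of the Pli1 and Nse2 summits at these genes lay inside an untagged peak. The highest Nse2 score of all was at adh1, alcohol dehydrogenase (41291, rank 1), where the Pli1 summit was 58 bp away and ranked 15 (score 7440). At eno101, enolase, the summits were 29 bp apart, with Nse2 rank 5 and Pli1 rank 25. At pyk1, pyruvate kinase, they were 20 bp apart (Nse2 rank 11, Pli1 rank 53), and at pdc101 the ranks were 9 and 45. The aldolase gene fba1 had only an Nse2 summit (rank 13), and tpi1, triosephosphate isomerase, only a Pli1 summit. Of the 17 genes listed, 5 (29.4%) had a Pli1 summit within 200 bp and 5 an Nse2 summit. Over all 5113 protein-coding genes the share was 4.6% for Pli1 and 0.821% for Nse2. Seen from the summits, 5 of 50 Nse2 summits were at these genes (10%, 3.33 to 21.8%) and 5 of 284 Pli1 summits (1.76%, 0.574 to 4.06%). The gene lists, here and below, were chosen with earlier results of these data known. Their shares therefore cannot show an excess at a class of genes.

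Genes of the translation machinery held 7 shared summits, 5 at ribosomal protein genes and 2 at translation factor genes. The ribosomal protein genes rps1001 (23 bp apart, Nse2 rank 21 and Pli1 rank 82), rps1401 (52 bp, ranks 22 and 75), rps1402 (71 bp, ranks 27 and 130), rpp103 (16 bp, ranks 31 and 157) and rpl1802 (15 bp, ranks 33 and 102) were shared. The pair rps1401 and rps1402 code for the same protein of the small subunit. Elongation factor genes were shared at tef103, 1 of the genes for eEF1A (Nse2 rank 7, Pli1 rank 27), and at tef5, for a subunit of eEF1B (79 bp, ranks 28 and 98). At tef103 only the Nse2 summit lay in the gene, and the Pli1 summit was 198 bp outside it, in the non-coding RNA SPNCRNA.1375. Of the 141 ribosomal protein genes, 33 (23.4%) had a Pli1 summit within 200 bp and 8 (5.67%) an Nse2 summit. As a share of each list these were 11.6% of Pli1 summits (8.13 to 15.9%) and 16% of Nse2 summits (7.17 to 29.1%), with intervals that overlap. Among 11 translation factor genes the counts were 7 (63.6%) and 3 (27.3%), against 4.6% and 0.821% of all protein-coding genes.

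Other shared protein-coding genes were of mixed function. They were thi2, a thiazole synthesis gene of the thiamine pathway (39 bp, Nse2 rank 3, Pli1 rank 13), ssa2, for an Hsp70 chaperone (69 bp, ranks 6 and 35), and ubi4, the polyubiquitin gene (116 bp, ranks 16 and 9). The mitochondrial ADP/ATP carrier gene anc1 (15 bp, ranks 29 and 49) and naa38, for a subunit of an N-terminal acetyltransferase (51 bp, ranks 37 and 141), were shared too. So were tlh1, a helicase gene near a chromosome end (8 bp, ranks 18 and 73), and fex1, for a fluoride exporter (86 bp, ranks 42 and 162).

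Non-coding RNA genes and centromeres also held shared sites. At snoU14, the U14 small nucleolar RNA that guides rRNA processing, the summits were 22 bp apart and the Pli1 score was the second highest (16516, rank 2, against Nse2 rank 8). At SPBTRNAILE.07, whose sequence is printed above, they were 7 bp apart in the spacer between a tRNA-Ile and a tRNA-Ala gene (Pli1 rank 24, Nse2 rank 26). In centromere 3, 4 shared summits lay in the repeats, at SPNCRNA.7194 (1 bp apart, Nse2 rank 4, Pli1 rank 7), SPNCRNA.7212 (1 bp, ranks 30 and 78), SPNCRNA.7217 (22 bp, ranks 38 and 101) and SPNCRNA.7222 (55 bp, ranks 34 and 108). Centromeres held 5 shared summits in all and 12% of the Nse2 list (4.53 to 24.3%), against 3.87% of the Pli1 list (1.95 to 6.82%). The outer 100 kb of chromosome arms held 4 shared summits and 14% of the Nse2 list (5.82 to 26.7%), against 3.87% of the Pli1 list (1.95 to 6.82%). Positions within 200 bp of a centromere were 1.16% of the analysed genome, and those as near to the outer arms 4.33%. At centromeres and at the outer arms alike, the intervals of both lists overlap.

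The remaining 6 shared sites came from short Nse2 regions and, in all but SPNCRNA.6662, from the bottom of both lists. At SPNCRNA.6662, near a telomere of chromosome II, the summits were 8 bp apart (Nse2 rank 41, Pli1 rank 48). SPNCRNA.5103 (123 bp, ranks 45 and 259), SPNCRNA.944 (64 bp, 46 and 272), SPBC16E9.20 (16 bp, 48 and 277) and SPBPJ4664.02 followed, the last with a pair of sites at 52 bp (47 and 261) and 6 bp (50 and 269). These are unnamed genes with no function that could be stated here, except that SPBPJ4664.02 is annotated as a glycoprotein gene. Both of its sites lay in sequence that occurs more than once in the genome. These 6 Nse2 regions were 577 to 1245 bp long, which leaves an Nse2 summit little room.

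Shared sites that ranked high in one list tended to rank high in the other. Spearman's rho between the Nse2 and Pli1 ranks of the 30 pairs was 0.88, and 0.82 over the 21 pairs whose Nse2 region spanned 10 kb or more. This is a description across sites of a single library per ligase, and scores also rose with region length (rho 0.61 over 284 Pli1 regions and 0.76 over 50 Nse2 regions) and with the untagged score at the same position (0.55 over 164 and 0.59 over 38). Of the 13 shared sites among the 25 highest Nse2 scores, 13 were within the 100 highest Pli1 scores, against 5 of the 17 shared sites with lower Nse2 scores. Sharing itself was less even: 8 of the 10 highest Nse2 summits were shared, but only 13 of the 25 highest and 17 of the 25 lowest. In the Pli1 list 3 of the 10 highest summits were shared, 12 of the 50 highest and 18 of the 100 highest.

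**Figure D2:**
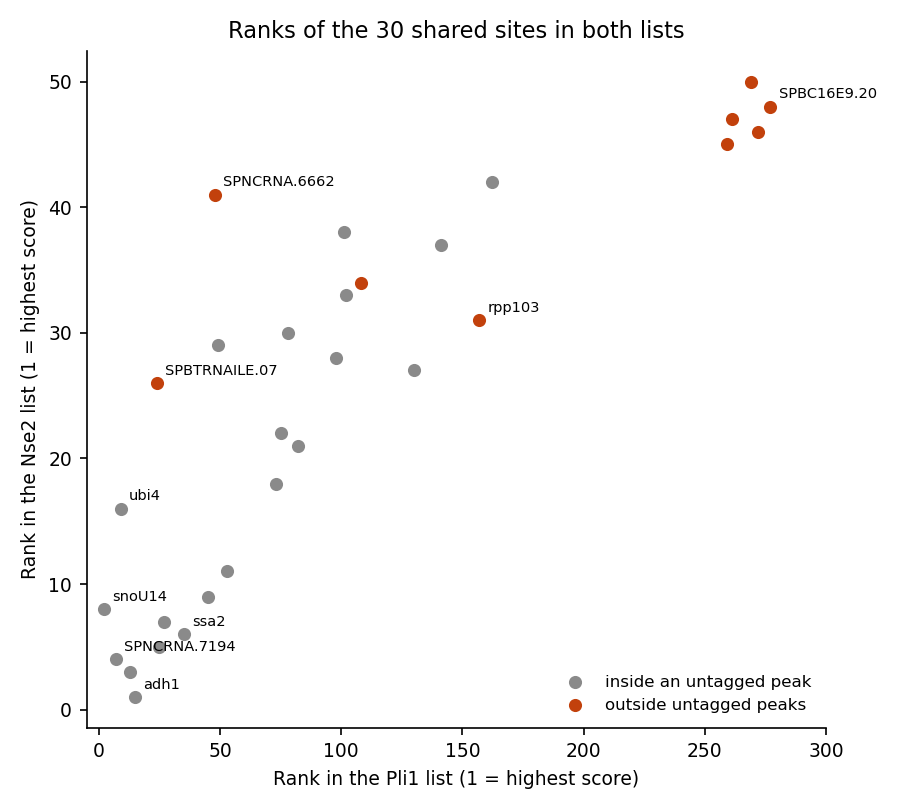
Rank of each of the 30 shared sites in the Pli1 list (x axis, of 284) and in the Nse2 list (y axis, of 50), with 1 the highest score; colours show whether the site lay inside an untagged peak. The sites run from snoU14, with ranks 2 and 8, to SPBC16E9.20, with ranks 277 and 48.

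Of the 20 Nse2-only summits, 18 were in coding sequence (90%). By the gene lists 3 were at ribosomal protein genes and 1 each at genes of translation factors, glycolysis, heat shock, and methionine, one-carbon and thiamine metabolism. The highest was at rpp202, the ribosomal P2 gene shown above (score 37798, rank 2), and its nearest Pli1 summit was 8599 bp away. This gene lies in the mating-type region, taken here as the whole span from the first to the last mat gene. Next were atd1, an aldehyde dehydrogenase gene (rank 10, 1223 bp from a Pli1 summit), and tef101, an eEF1A gene like tef103 (rank 12, 15836 bp). Then came fba1 (rank 13, 3519 bp), SPCTRNAARG.12 (rank 14, 3969 bp), met26, for methionine synthase (rank 15, 4587 bp), and psu1 (rank 17). The vitamin B6 synthesis gene snz1 (rank 19, 21832 bp), gnd1 (rank 20), the sulfate assimilation gene sua1 (rank 23, 4847 bp), the phospholipase gene plb1 (rank 24, 2887 bp) and mcp60, for the mitochondrial Hsp60 chaperonin (rank 25, 2199 bp), completed the 25 highest Nse2 ranks.

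The other 8 Nse2-only summits were at SPAC8C9.04 (rank 32, 70836 bp), the ribosomal protein genes rpl22 (rank 35, 40864 bp) and rpl35 (rank 40, 13863 bp), the inositol transporter gene itr2 (rank 36, 34157 bp), the fluoride exporter gene fex2 (rank 39, 48284 bp), SPBC32H8.15 (rank 43, 121317 bp), the nickel transporter gene nic1 (rank 44, 1430 bp) and beside utp24, a gene for an rRNA processing factor (rank 49, 119622 bp). Over the 20 sites, 10 were within 5 kb of a Pli1 summit and 9 were more than 10 kb away. The share of the genome within 5 kb of a Pli1 summit was not counted, so these counts cannot show unusual nearness.

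Whether the Nse2 summit fell at the strongest of several Pli1 summits was asked within Nse2 regions. Of the 50 Nse2 regions, 31 held at least 2 Pli1 summits, 17 held 1 and 2 held none (those at SPBC32H8.15 and utp24). In the 31 regions the Nse2 summit was within 500 bp of some Pli1 summit in 16 (51.6%, 33.1 to 69.8%). It was at the highest-scored Pli1 summit of the region in 8 (25.8%, 11.9 to 44.6%), at the second in 5, at the third in 2 and at the fourth in 1. Of all 266 Pli1 summits in these regions, 16 (6.02%) were near the Nse2 summit. In the regions with 1 Pli1 summit, 14 of 17 were shared (82.4%, 56.6 to 96.2%). Of these 14, 9 were in Nse2 regions under 10 kb, the shortest of 577 bp. In the shortest regions a Pli1 summit can hardly lie far from the Nse2 summit. This share therefore cannot be compared with that of the 31 regions. Since an Nse2 region has 1 summit, 138 of the 254 Pli1-only summits were in an Nse2 region whose own summit was at another Pli1 summit.

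**Figure D3:**
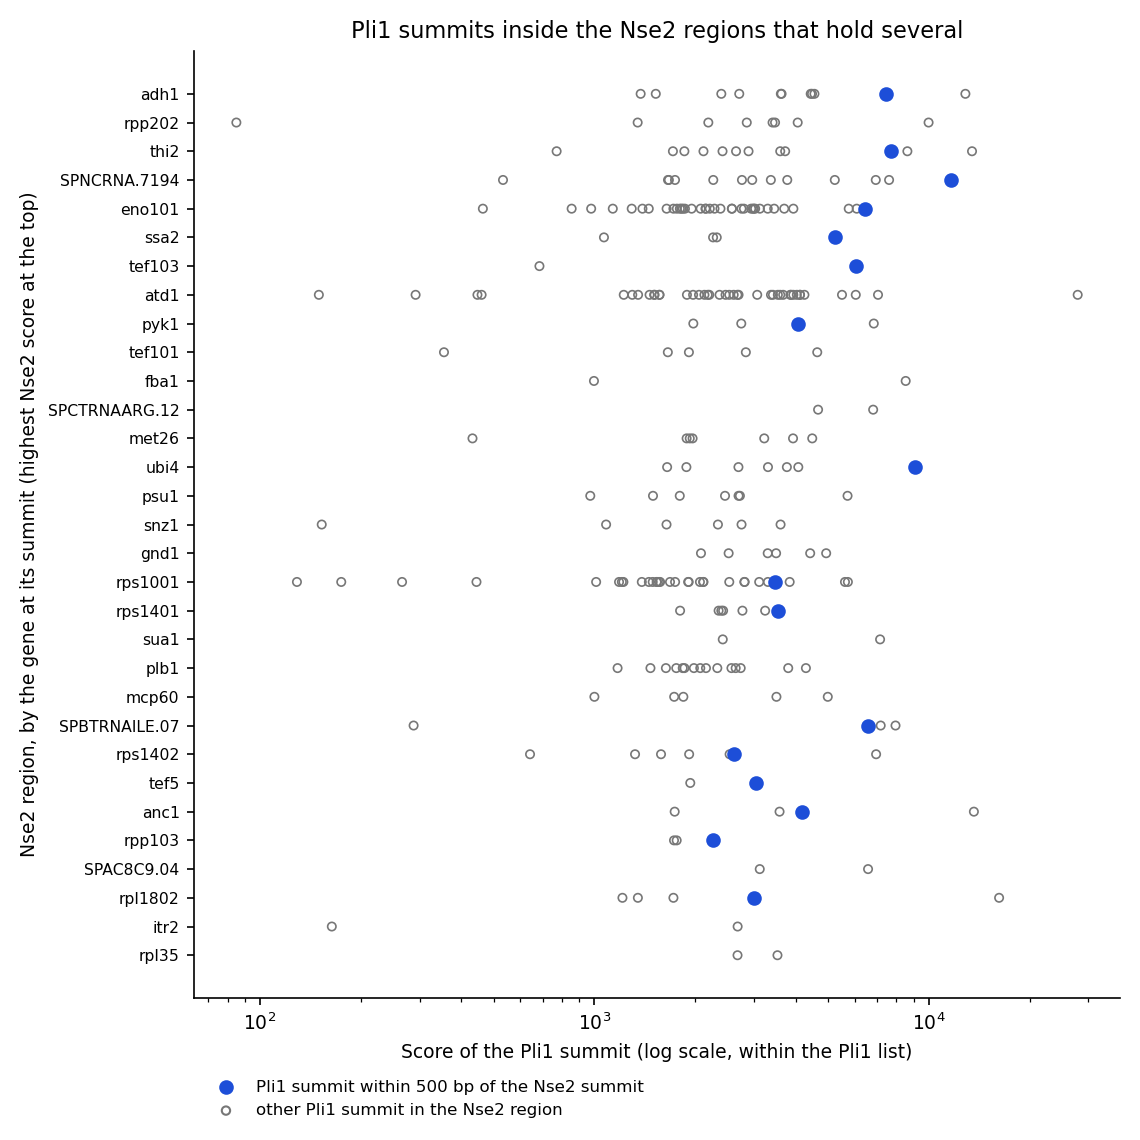
The 31 Nse2 regions that held 2 or more Pli1 summits, each a row, with the score of each Pli1 summit inside it on the x axis (log scale) and rows ordered by Nse2 score; filled points are Pli1 summits within 500 bp of the Nse2 summit. A filled point is present in 16 rows, and in 8 of these it has the highest score of the row.

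Of the 15 Pli1-only summits with the highest scores, 8 were named for a non-coding RNA other than a tRNA. A tRNA gene gave the name of 3 and a protein-coding gene that of 4. Of all 254 Pli1-only summits, 180 (70.9%) lay in a protein-coding gene. A summit outside such genes is named for the RNA gene it lies in or the nearest gene. The share of all Pli1-only summits named for a non-coding RNA was not counted, so the 8 of 15 cannot show an excess of such names. The highest Pli1 score of all was at SPNCRNA.954 (27867, rank 1), 114227 bp from any Nse2 summit. Next were SPAC56F8.13 (16223, rank 3), SPNCRNA.1390 (13637, rank 4), SPNCRNA.6615 (13463, rank 5), SPNCRNA.1197 (12862, rank 6) and SPNCRNA.391 (9983, rank 8). The last is annotated as a small RNA of the mating-type region, but the summit lay outside the span of mat genes used here. The others were rgp1 (rank 10), the non-coding RNA nam1 (rank 11), SPBTRNAILE.06 (rank 12), SPNCRNA.6984 (rank 14), SPBTRNAILE.08 (rank 16), SPBTRNAILE.05 (rank 17), the non-coding RNA prl53 (rank 18), the F-box protein gene pof9 (rank 19) and SPCC1672.01, for a histidinol-phosphatase (rank 20). Their nearest Nse2 summits were 8599 to 363287 bp away, and 10 of the 15 lay outside untagged peaks. The other 5 lay inside untagged peaks, as did 143 of all 254 Pli1-only summits (56.3%).

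Most summits at genes transcribed by RNA polymerase III belonged to the longer Pli1 list. Within 200 bp of a tRNA gene, the adaptors of translation, lay 18 Pli1-only summits, 1 shared summit and 1 Nse2-only summit. Positions that close to a tRNA gene were 0.601% of the analysed genome. The 18 Pli1-only summits were 28 bp or less from the gene, with scores of 1859 to 7950 (median 3117.5), and 15 of them were outside untagged peaks. On chromosome I they were at SPATRNAVAL.02, SPATRNAGLY.01, SPATRNASER.02, SPATRNAASP.02 and SPATRNASER.04. On chromosome II they were at SPBTRNAHIS.02, SPBTRNAARG.05, SPBTRNAASN.02, SPBTRNAPRO.06, SPBTRNAPHE.03, SPBTRNAPRO.07, SPBTRNASER.06, SPBTRNAILE.06 in centromere 2, and SPBTRNAILE.05 and SPBTRNAILE.08 on its flanks, and the 3 tRNA-Ile genes each had a tRNA-Ala neighbour in reach of the same summit (SPBTRNAALA.08, SPBTRNAALA.09 and SPBTRNAALA.11). The shared summit at SPBTRNAILE.07 likewise had SPBTRNAALA.10. Chromosome III had SPCTRNAHIS.03, SPCTRNAASN.06 and SPCTRNAARG.13, the last beside SPCTRNAASP.07 as SPCTRNAARG.12 is beside SPCTRNAASP.06. Of the 36 5S rRNA genes (0.162% of the analysed genome lay within 200 bp of them), 5 had a Pli1-only summit and 0 an Nse2 summit. SPRRNA.39 and SPRRNA.06 had theirs from a summit that was also at a tRNA gene, and the others were SPRRNA.34, SPRRNA.28 and SPRRNA.15. In all, 22 of 284 Pli1 summits (7.75%, 4.92 to 11.5%) and 2 of 50 Nse2 summits (4%, 0.488 to 13.7%) were near a tRNA or 5S gene, and these intervals overlap. The B-box letters were within 150 bp of 17 of 254 Pli1-only summits (6.69%, 3.95 to 10.5%), 1 of 30 shared and 1 of 20 Nse2-only summits, against 0.277% of all genome positions. Of the 171 tRNA genes, 97 hold these letters.

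Small nuclear and nucleolar RNA genes had Pli1-only summits at snu2, the U2 spliceosomal RNA, at snoR69b and at the neighbours snoZ4 and snoZ3, 3 summits in all, beside the shared summit at snoU14, and 9 Pli1-only summits were within 500 bp of such a gene. Of the 72 such genes, 5 (6.94%) had a Pli1 summit within 200 bp, and positions that close were 0.294% of the analysed genome. Ribosomal protein genes made up 28 Pli1-only summits, with scores of 1723 to 4054 (median 2678.5), and 8 of the 28 were outside untagged peaks. Members of the translation factor list with a Pli1-only summit were tef102, tef3, eft202, tif1 and tif51. Members of the heat shock list were ssa1, sks2 and hsp90, and members of the list for methionine, one-carbon and thiamine metabolism were nmt1 and ade2. With shared summits, 4 of the 15 heat shock genes (26.7%) and 3 of the 11 metabolism genes (27.3%) had a Pli1 summit. Over all 5113 protein-coding genes this share was 4.6%. The lists are not complete: SPAC29A4.02C (an eEF1 subunit), tif223 (an eIF2B subunit) and the heat shock gene pss1 also had Pli1-only summits and were chosen here after their values were seen. Transport genes with a Pli1 summit within 200 bp were pma1, the plasma membrane proton pump, and ptr2, zrt1 and vht1, transporters of peptides, zinc and biotin. The summit of pma1 was 189 bp outside the gene, in SPNCRNA.3728, and that of ptr2 was 195 bp outside. Of the 9 transport genes listed 4 had a Pli1 summit and 0 an Nse2 summit, but the list leaves out the transporter genes itr2, nic1, fex1 and fex2, which had Nse2 summits. Of the 10 histone genes listed, 2 had a Pli1-only summit within 200 bp, hhf1 (H4) and htb1 (H2B). The summit of htb1 was 124 bp outside it, in the coding sequence of sec5. Of the 13 Tf2 retrotransposons, Tf2-1 had 1. Within 50 bp in place of 200 bp the Pli1-only counts were 3 for 5S, 2 for transport and 1 for histone genes. No summit of either ligase was within 200 bp of the 13 SUMO pathway genes, the 8 Smc5/6 genes or the 238 long terminal repeats. Positions that close were 0.247%, 0.158% and 1.29% of the analysed genome in the same order. With counts this small, the Nse2 list of 50 summits cannot show whether a group with 1 or 2 members at Pli1 summits is left out by Nse2.

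**Figure D4:**
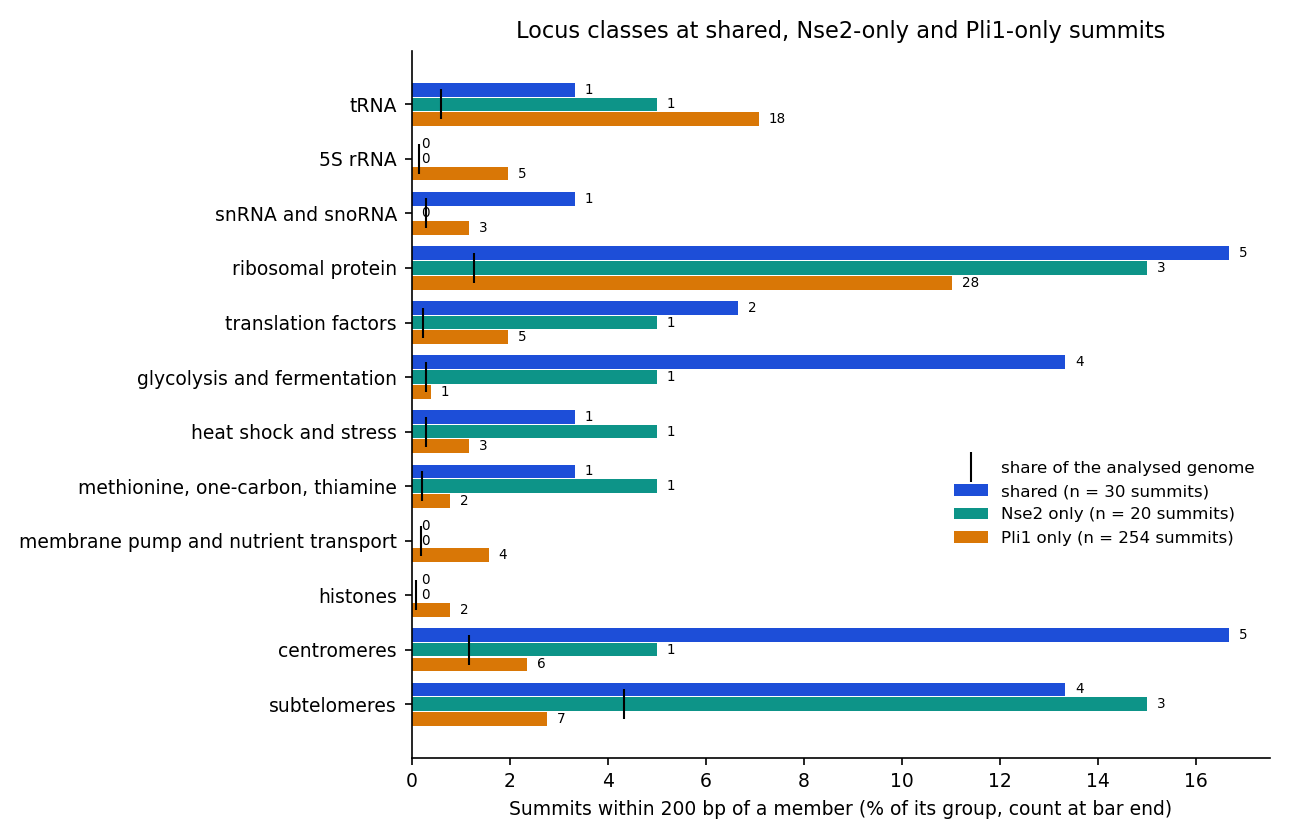
Share (%) of the 30 shared, 20 Nse2-only and 254 Pli1-only summits within 200 bp of a member of each locus class, with the count at the bar's end; the black tick is the share of the analysed genome that close to the class. Glycolysis genes hold 4 of the 30 shared and 1 of the 254 Pli1-only summits, and tRNA genes 1 and 18.

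The genes of the ligases and of SUMO itself had no summit near them. The nearest Pli1 summit to pli1 was 9948 bp away and the nearest Nse2 summit 163450 bp. For nse2 these distances were 41729 and 69693 bp, and for pmt3, the SUMO gene, 3459 and 304463 bp. Each of the 3 genes lay inside a region of both lists. Over all 5113 protein-coding genes only 4.6% had a Pli1 summit within 200 bp and 0.821% an Nse2 summit. The lack of a summit at 3 genes therefore cannot show that they are avoided.

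Some summits that were not shared by position were at copies of the same repeat. Copies were taken as stretches with at least 100 identical 50-base words within 500 bp of both summits, with the summits at most 500 bp apart when the copies are laid on each other. At 2 Nse2-only sites a Pli1 summit lay at a copy: fex2, a copy of the shared fex1 with the summits 37 bp apart, and SPCTRNAARG.12, a copy of SPCTRNAARG.13 with the summits 38 bp apart. In the other direction 5 Pli1-only sites had an Nse2 summit at a copy, namely SPCTRNAARG.13, SPNCRNA.7201 (82 bp from SPNCRNA.7212 between copies) and SPBTRNAILE.05, SPBTRNAILE.06 and SPBTRNAILE.08. The last 3 were each 1 bp from the Nse2 summit of SPBTRNAILE.07 when the copies are laid on each other. Counting copies gave 32 of 50 Nse2 summits (64%) and 35 of 284 Pli1 summits (12.3%). Repeated sequence was found within 150 bp of 14 of 30 shared Nse2 summits (46.7%, 28.3 to 65.7%), 3 of 20 Nse2-only (15%) and 42 of 254 Pli1-only summits (16.5%), and lay as near to 5.11% of all analysed positions. Reads were mapped uniquely per the file headers, and the part of this in where a summit fell among copies was not tested.

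The strain without a tag had peaks at many of these sites. Its 3526 peaks outside the ends of chromosome III cover 18.7% of the analysed genome. They held 21 of 30 shared summits (70%, 50.6 to 85.3%), 17 of 20 Nse2-only summits (85%, 62.1 to 96.8%) and 143 of 254 Pli1-only summits (56.3%, 50 to 62.5%). The untagged score at the summit had a median of 742 over the 21 shared summits, 478 over the 17 Nse2-only and 277 over the 143 Pli1-only summits. By rank in the untagged list these medians were 57, 202 and 622. The shared sites ssa2 (untagged rank 1), SPNCRNA.7194 (rank 3), rps1001 (rank 4), rps1401 (rank 12), eno101 (rank 13), rps1402 (rank 17) and adh1 (rank 22) were among the highest untagged peaks. The part of untagged signal in the sharing was not tested, since the lists hold no signal that could be subtracted.

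Outside untagged peaks 12 Nse2 summits remained, and 9 of them were shared (75%). The 9 were SPBTRNAILE.07, rpp103, SPNCRNA.7222, SPNCRNA.6662, SPNCRNA.5103, SPNCRNA.944, SPBC16E9.20 and the pair at SPBPJ4664.02, and 7 of them came from Nse2 regions under 10 kb. The 3 Nse2-only summits there were rpp202, SPBC32H8.15 and the site beside utp24. Where the Nse2 region spanned 10 kb or more, 19 of 21 shared summits (90.5%) were inside an untagged peak. Outside untagged peaks and in unique sequence were 4 of 30 shared, 3 of 20 Nse2-only and 87 of 254 Pli1-only summits. In tagged regions with at least 2 untagged peaks, the summit was in the highest-scored of them for 11 of 24 shared Nse2 summits and 15 of 23 shared Pli1 summits. The counts were 2 of 17 for Nse2-only and 46 of 205 for Pli1-only summits. Since regions differ in how many untagged peaks they hold, these highest peaks were 1.08% of the untagged peaks in the regions of shared Nse2 summits, 4.29% for shared Pli1, 1.30% for Nse2-only and 6.89% for Pli1-only summits.

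**Figure D5:**
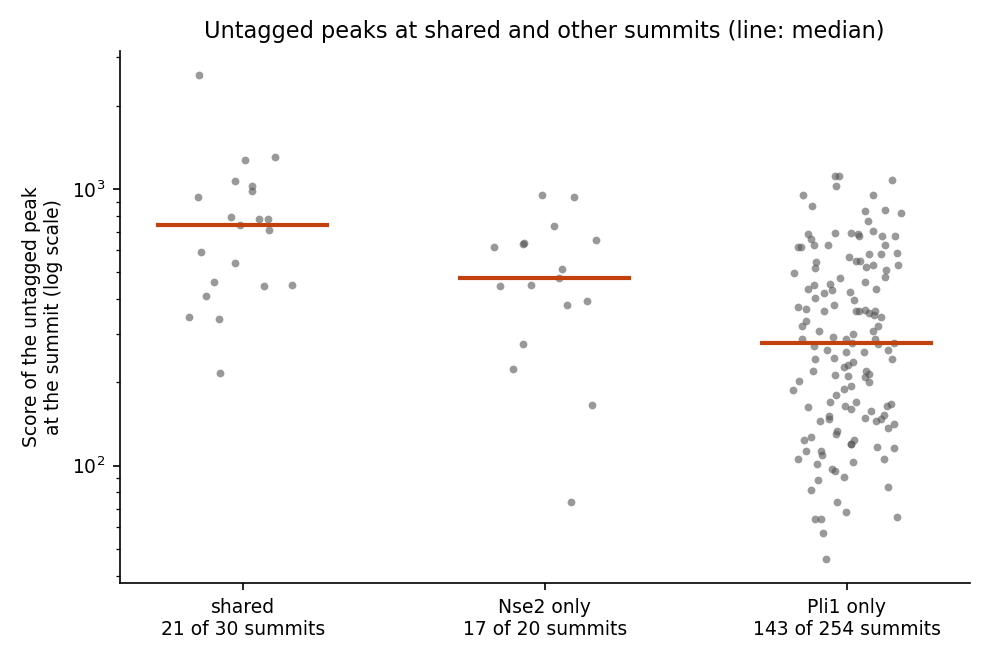
Authors' score (log scale) of the untagged peak at each shared, Nse2-only and Pli1-only summit that lay inside such a peak, spread sideways for legibility, with a line at the median. The medians are 742 over 21 shared, 478 over 17 Nse2-only and 277 over 143 Pli1-only summits, and the groups overlap.

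Most summits of every group lay in coding sequence, and few in untranslated exons. Coding sequence held 20 of 30 shared Nse2 summits (66.7%, interval 47.2 to 82.7%), 18 of 20 Nse2-only (90%, interval 68.3 to 98.8%) and 167 of 254 Pli1-only summits (65.7%), against 57.1% of the genome. Untranslated exons held 1, 0 and 11 summits in the same order, against 16.7% of the genome. Along protein-coding genes the median summit was at 56.3% of the length from the start for 21 shared summits, 57.2% for 18 Nse2-only and 66.1% for 180 Pli1-only summits. Spacers between divergent genes held 2 shared, 0 Nse2-only and 23 Pli1-only summits (9.06%), against 10.0% of the genome. Spacers between tandem genes held 2, 0 and 42 (16.5%, 12.2 to 21.7%), against 10.8% of the genome. The interval of the Nse2-only share (0 to 16.8%) takes in the genome share in both. Spacers between convergent genes held 4 shared (13.3%, 3.76 to 30.7%), 2 Nse2-only (10%, 1.23 to 31.7%) and 9 Pli1-only summits (3.54%, 1.63 to 6.62%), against 2.13% of the genome. The 4 shared summits were all in centromere 3. The AT content of the 500 bp around the summit had medians of 58.1% for shared Nse2 summits, 54.7% for Nse2-only and 59.2% for Pli1-only summits. Coding sequence of the genome had 60.4% and the whole analysed genome 63.9%.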

How the data were processed

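Calibrated ChIP-seq gave 1 list of called regions per strain. Uniquely mapped S. pombe reads entered a p-value track on which the calls were made, per the file headers. Values are whole-number scores per region, as deposited by the authors, with no scale or depth stated. The fold, p and q columns (3) hold 0 throughout. MACS3, Bowtie2, cutadapt and SAMtools are named without roles in the submitters' processing notes, beside sacCer3, the calibrator's build. Sequence names match ASM294v3, whose RefSeq annotation was used. The 3 inputs were not analysed here on their own.

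Summits were start plus offset, compared within 500 bp in Python 3.11.15 with NumPy 2.4.6 and SciPy 1.17.1, with figures from Matplotlib 3.10.9, by code tested on simulated data. A summit took the name of the gene it lay in (protein-coding first, then the shorter) or the nearest. Overlapping genes cannot be told apart. All shared and Nse2-only summits, the 15 highest Pli1-only summits, RNA genes within 200 bp, members of lists with at most 10 such summits, and pli1, nse2 and pmt3 were named. Repeats were 50-base words occurring more than once. Centromere intervals came from PomBase. The transport symbols fth1, mup1 and can1 were not matched. Members and lists were chosen with earlier results of these data known. Alternatives changed the window, the ends left out, the summit position, the list lengths, the untagged and repeat filters and the class distance.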

Additional observations from a re-analysis of the deposited data

How the results depend on the processing

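No paired analysis was possible because each strain had 1 ChIP library and no result comes from a test. Of 172 alternative values 145 stayed within their counting interval or within 1.5 times the count, and 27 moved. The values are shares, counts and AT contents, which have no direction that could reverse. The share of Nse2 summits that were shared fell from 60% to 28% when midpoints of regions replaced summits and to 24% when the Pli1 list was cut to the length of the Nse2 list. It was 75% outside untagged peaks and 48.5% outside repeated sequence. On chromosomes I, II and III it was 47.1%, 66.7% and 66.7%. The share was 44% when both summits had to be in the same protein-coding gene. The values by chromosome and by gene were added after seeing the data. Those by chromosome and outside repeated sequence stayed within the counting interval of the 60% (45.2 to 73.6%). The share of Pli1 summits was 4.93% with midpoints, 24% with the shortened list and 6.99% outside repeated sequence. Shared Nse2 summits inside untagged peaks were 90.5% in Nse2 regions of at least 10 kb, also added after seeing the data. Pli1-only summits in untagged peaks were 63% with 500 bp added to each peak and 45.7% with the higher-scored untagged peaks alone. Mean AT content with windows of 200 and 1000 bp was 53.4% and 60.3% for shared Nse2 summits, 55.2% and 61.2% for shared Pli1 summits, 51.2% and 58.6% for Nse2-only summits, and 55.9% and 61.8% for Pli1-only summits. Shortening a list leaves fewer summits, and the cause of the other shifts was not tested. With 1 library per ligase, the spread between cultures is unknown, and the lists' depth limits what a missing summit can show.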
